A study of Homo sapiens with 22 samples.

Results

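The lysosome is the acidic compartment in which a cell degrades proteins, glycans, nucleic acids and lipids. RNA levels of 39 genes that encode lysosomal enzymes, lysosomal membrane proteins and regulators of the organelle were examined here, out of 20411 protein-coding genes in each expression table. The 39 genes were chosen by symbol, with earlier results of these data known. They were 7 membrane proteins, 8 proteases, 10 glycosidases, 5 sulfatases, 6 lipid enzymes and their cofactors, and a group of 3 made up of progranulin and the transcription factors TFEB and TFE3. FP54 is a small molecule that brings FTO, the enzyme that removes the m6A mark from RNA, to the VHL ubiquitin ligase so that FTO protein is degraded. Poly(A) RNA was sequenced from 2 established human leukemia cell lines, MOLM-13, an acute myeloid leukemia line with a KMT2A rearrangement, and NB4, an acute promyelocytic leukemia line. In each line, 3 libraries came from cells exposed to FP54 at 2 μM for 48 hours and 3 from cells given the solvent DMSO over the same time. The labels name no other modification of either line, each line stands for a single leukemia, and the control was DMSO only, so effects that FP54 has apart from FTO loss cannot be told apart from those that pass through FTO here.

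Most lysosomal enzymes are made in the endoplasmic reticulum, tagged with mannose 6-phosphate in the Golgi and carried to the lysosome by receptors, while membrane proteins such as LAMP1 reach it by sorting motifs in their tails. TFEB and its relative TFE3 are helix-loop-helix transcription factors that, when not held in the cytoplasm by the kinase complex mTORC1, enter the nucleus and bind an E-box motif found upstream of many lysosomal genes. In myeloid cells lysosomal content is known to grow as monocytes and macrophages mature.

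The E-box motif is shown first. It was already known from lysosomal genes, so a raised share here follows from the kind of gene listed and is not an independent result. RefSeq promoters (GRCh38.p14, 250 bases before to 50 bases after each transcript start) were found for 29 of the 39 genes, as 44 promoters. The 6-letter core CACGTG, which reads the same on both strands, was present in 11 of the 44 promoters (25%) and in 7.26% of 35116 promoters of all genes. The 8-letter form TCACGTGA, which contains that core, was present in 7 of 44 (15.9%) against 0.98% of all promoters. The 10-letter form, TCACGTGA with G before it and C after it, was present in 3 of 44 (6.82%), those of GAA, GALNS and MCOLN1, against 0.353% of all promoters. The related TCATGTG, searched on both strands, was present in 6 of 44 (13.6%) against 2.92%. Windows of 30 bases are printed for the 6 genes with an 8-letter match, 5′ to 3′ on the strand of the gene, with the matching letters in capitals.
GAA (chr17:80101493-80101522, plus strand): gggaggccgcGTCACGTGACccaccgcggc
GAA (chr17:80101538-80101567, plus strand): gctcccgccgGTCACGTGACccgcctctgc
MCOLN1 (chr19:7522571-7522600, plus strand): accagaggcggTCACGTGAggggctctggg
MCOLN1 (chr19:7522598-7522627, plus strand): gggctaccggGTCACGTGACcgaggcacag
GALNS (chr16:88857104-88857133, minus strand): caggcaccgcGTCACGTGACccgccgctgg
CTSA (chr20:45891298-45891327, plus strand): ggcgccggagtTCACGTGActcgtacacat
CLN3 (chr16:28492058-28492087, minus strand): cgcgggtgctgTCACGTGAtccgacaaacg
LAMP1 (chr13:113297199-113297228, plus strand): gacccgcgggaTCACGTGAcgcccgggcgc
LAMP1 (chr13:113297226-113297255, plus strand): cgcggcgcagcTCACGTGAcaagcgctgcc

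Of these 6 genes, GAA and MCOLN1 were higher with FP54 in both lines, GALNS and CTSA were higher in MOLM-13 cells, CLN3 was higher in MOLM-13 cells and too low to test in NB4 cells, and LAMP1 was called in neither line. LAMP1 had 6 copies of the core, the most of any member (the plot of E-box positions). Promoters were found for 18 genes called higher in 1 or both lines, and 7 of these genes held the core (38.9%). Of the 11 genes called higher in neither line, 3 held it (27.3%), among them ARSB, which was lower in NB4 cells. Counted by gene in the same way, the core was held by 8.77% of all 27305 genes with a promoter. Among those in the expression tables the share was 10.9%. Binding at these sites was not measured, and a match says only that the letters are present.

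**Figure D1:**
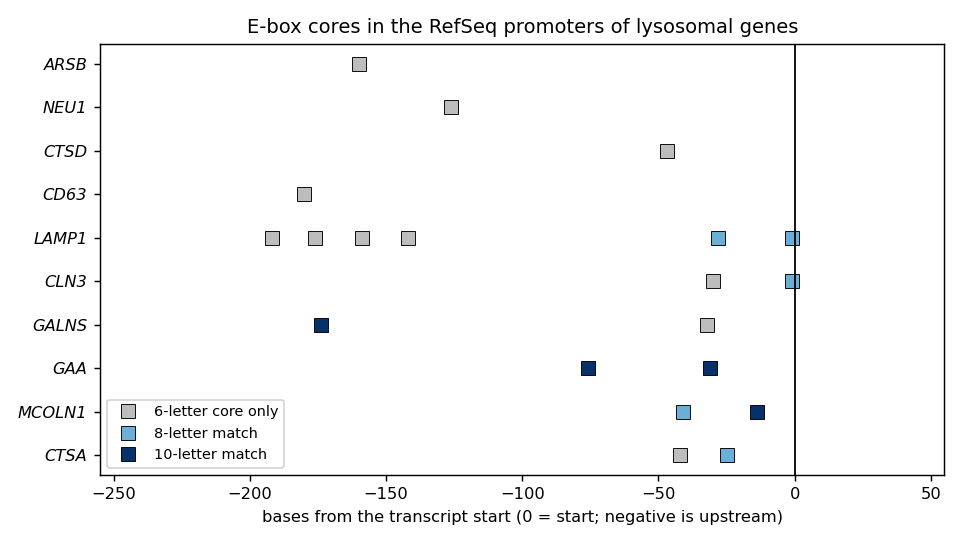
Position of each CACGTG core in the RefSeq promoters of the 10 lysosomal genes that hold it, in bases from the transcript start on the x axis (negative is upstream), with 1 gene per line on the y axis. Dark squares mark 10-letter matches (GAA, MCOLN1 and GALNS), light blue squares 8-letter matches and gray squares the core alone, and LAMP1 carries 6 cores.

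Values are RPKM, reads scaled by gene length and by the library total, as deposited. The read numbers behind them were recovered from the RPKM and gene lengths. Reads on genes ranged from 16313397 to 17362379 in the MOLM-13 DMSO libraries and from 20662774 to 22349821 in the NB4 DMSO libraries. The FP54 libraries held 5836560 to 19207419 reads in MOLM-13 cells, the lowest being replicate 2, and 10602309 to 13079300 in NB4 cells. The lowest value of a tested member rested on 27 reads in MOLM-13 and 51 in NB4 cells. Transcripts of FTO averaged 1.01 RPKM with either treatment in MOLM-13 cells, and 2.73 ± 0.18 (SD, n = 3) with DMSO and 2.03 ± 0.0782 with FP54 in NB4 cells. FP54 acts on FTO protein, so these levels do not check the labels. The lineage markers matched the line names in part: HOXA9, MEIS1, FLT3 and LYZ averaged 21.3, 6.36, 74 and 489 RPKM in MOLM-13 DMSO libraries, and MPO averaged 2170 RPKM in NB4 and 16.1 RPKM in MOLM-13 DMSO libraries. The other promyelocyte granule genes went against the line names, with DMSO means of 186 RPKM in MOLM-13 and 0.15 RPKM in NB4 cells for ELANE, 413 and 61 RPKM for PRTN3, and 174 and 9.96 RPKM for AZU1. The T cell, B cell, erythroid and fibroblast lists each summed to at most 1.22 RPKM in any MOLM-13 library, and the epithelial list to 5.02 to 8.98 RPKM, mostly KRT18. In NB4 cells each of these lists was higher in every FP54 library than in every DMSO library. The T cell, B cell and epithelial lists each had 1 gene called higher. The T cell list, mostly CD3D, summed to 6.68 to 7.49 RPKM with DMSO and 12.1 to 12.6 RPKM with FP54. The B cell list, mostly CD79B, summed to 4.26 to 6.36 and 7.29 to 7.46 RPKM, and the epithelial list, mostly KRT18 and EPCAM, to 20.1 to 22 and 22.3 to 24.3 RPKM. At lower levels, the erythroid list summed to 0 to 0.0229 and 0.0824 to 0.235 RPKM, and the fibroblast list to 0.00448 to 0.0582 and 0.213 to 0.55 RPKM. Their part in the lysosomal values was not tested.

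In MOLM-13 cells, 16 of the 38 lysosomal genes tested were higher with FP54 and none was lower by the limma test, which called a gene at an unadjusted p under 0.01 when its log2 fold change was also 0.5 or more in size. Over all 9710 genes tested, 9.3% were called higher and 9.04% lower by the same rule. The median log2 fold change of the 38 members was 0.52, beside 0.00 over all genes tested. The 3 FP54 values were all above or all below the 3 DMSO values for 24 of the 38 members (63.2%), against 37.1% of all genes. In NB4 cells, 18 of the 35 members tested were higher and 2, GLA and ARSB, were lower, where 18.6% of 9853 genes were called higher and 10.7% lower. The NB4 median was 0.53, beside 0.07 over all genes, and 29 of the 35 members (82.9%) did not overlap between treatments, against 60.5% of all genes. Genes are described as higher or lower only where they passed this test. Genes were tested when their mean over both treatments reached 1 RPKM. SGSH in MOLM-13 cells and IDUA and ARSA in NB4 cells averaged under 1 RPKM with DMSO. They entered the test only through their FP54 values, and their calls are among the 16 and 18. The same filter applied to all genes. The counts by role given below have the same background, 9.3% higher and 9.04% lower in MOLM-13 cells and 18.6% and 10.7% in NB4 cells.

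The 39 genes together made up 0.423, 0.433 and 0.405% of the summed RPKM of all genes in the 3 MOLM-13 DMSO libraries and 0.799, 0.645 and 0.715% in the FP54 libraries. Every FP54 library lay above every DMSO library. In NB4 cells the shares were 0.216, 0.213 and 0.21% with DMSO and 0.339, 0.335 and 0.338% with FP54, again without overlap. PSAP alone accounted for a large part of these sums (the plot of library shares). Without it, the shares were 0.319 ± 0.0085% (SD, n = 3) with DMSO and 0.459 ± 0.0448% with FP54 in MOLM-13 cells, and 0.163 ± 0.00208% and 0.223 ± 0.00173% in NB4 cells. With 3 libraries in each group, the smallest p of an exact two-sided permutation test is 0.1, so no p is given for these shares.

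**Figure D2:**
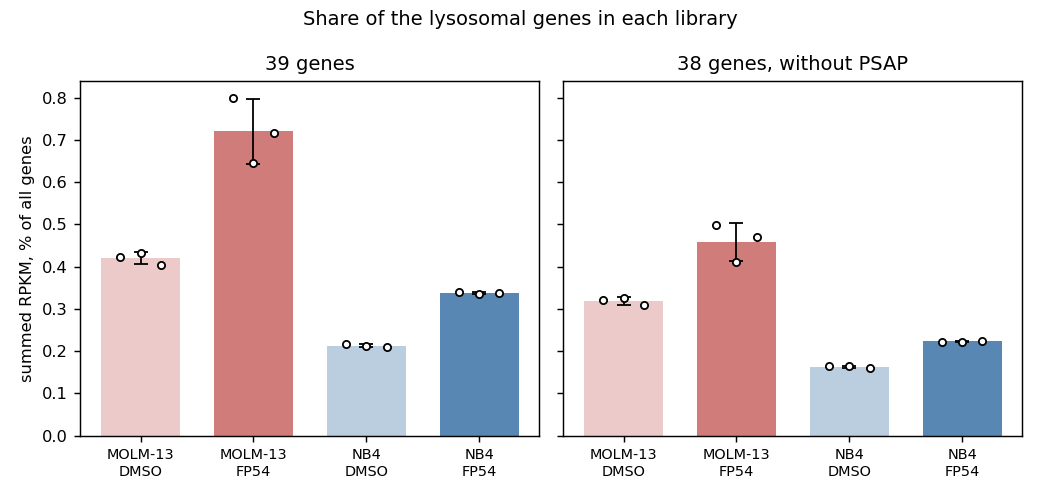
Summed RPKM of the lysosomal genes as a percentage of the summed RPKM of all genes (y axis, from 0), for all 39 genes on the left and for 38 genes without PSAP on the right. Bars are means of 3 libraries, error bars are SD and circles are libraries, and the FP54 libraries of each line lie above its DMSO libraries in both panels.

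Monocyte maturation markers differed with the treatment. Of the 8 listed, 5 were tested in MOLM-13 cells and 4 were higher (background 9.3%), and the list summed to 69.3 to 90.3 RPKM with DMSO and 113 to 142 with FP54. In NB4 cells 3 of 4 tested were higher (background 18.6%), with sums of 7.87 to 9.41 and 25.6 to 27.8 RPKM. Promyelocyte genes were lower in NB4 cells, 3 of 4 tested (background 10.7%), with MPO at 2170 and 1120 RPKM, PRTN3 at 61 and 15.9 RPKM and AZU1 at 9.96 and 6.88 RPKM, and the list summed to 2110 to 2360 RPKM with DMSO and 1120 to 1190 RPKM with FP54. In MOLM-13 cells 1 of 5 was lower, MPO (16.1 and 3.79 RPKM), and the sums of the list overlapped. CD163 and FCGR3A, markers of mature monocytes and macrophages, stayed under 0.1 RPKM in every library of both lines. The part of these markers in the lysosomal values was not tested, and in bulk RNA a change in the share of a kind of cell and a change in RNA per cell cannot be told apart.

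The NB4 FP54 libraries also carried more signal from genes that leukemia cells are not known to use. The mean level of 413 olfactory receptor genes was 0.05 to 0.0551 RPKM there and 0.0017 to 0.00374 RPKM in the NB4 DMSO libraries. In MOLM-13 cells it was 0.00477 to 0.00837 RPKM with FP54 and 0.00389 to 0.00438 RPKM with DMSO. With that mean level subtracted from each library, 18 members were called higher and 2 lower in NB4 cells. Tested members averaged 1 RPKM or more, so subtracting at most 0.0551 RPKM could hardly move their calls. The members under the filter were not covered.

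Under DMSO the levels of the 39 genes spanned from 0.355 RPKM (IDS) to 233 RPKM (PSAP) in MOLM-13 cells, and from 0.028 RPKM (SGSH) to 120 RPKM (PSAP) in NB4 cells. PSAP, GRN and CD63 held the 3 highest ranks in both lines. In MOLM-13 cells their DMSO ranges did not overlap, at 223 to 241, 120 to 127 and 95.5 to 119 RPKM, while in NB4 cells those of CD63 (53.9 to 71.6) and GRN (38.9 to 56) did. CTSH ranked 30 of 39 in MOLM-13 and 10 of 39 in NB4 cells, and CTSB ranked 4 and 14. These ranks are within each table, since the tables were scaled separately.

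Among membrane proteins, the calcium channel MCOLN1 was higher in both lines. It measured 2.43, 2.14 and 2.04 RPKM with DMSO and 4.83, 3.42 and 4.05 with FP54 in MOLM-13 cells, a 1.86-fold ratio of means (log2 fold change 0.86 ± 0.18 (SE), adjusted p = 0.0128). The NB4 values went from 1.51 ± 0.203 (SD, n = 3) to 3.11 ± 0.351 RPKM (log2 fold change 1.00 ± 0.14, adjusted p = 0.000194). Neither line had overlapping values for this gene. MCOLN1 shares its strand and some of its span with PNPLA6 in the annotation.

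CLN3, the membrane protein lost in juvenile neuronal ceroid lipofuscinosis, was higher in MOLM-13 cells, from 1.93 ± 0.254 to 3.83 ± 0.335 RPKM (log2 fold change 0.95 ± 0.18, adjusted p = 0.00764). In NB4 cells it ranged from 0.406 to 0.598 RPKM with DMSO and from 0.832 to 0.912 with FP54, under the mean of 1 RPKM needed for the test. It overlaps APOBR on the other strand, and because the use of strand in counting is not stated, reads of such pairs cannot be told apart.

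The cholesterol exporter NPC1 and SCARB2, the receptor that carries glucocerebrosidase to lysosomes, were higher in NB4 cells and not called in MOLM-13 cells. NPC1 measured 3.77, 3.34 and 3.34 RPKM with DMSO and 5.14, 5.15 and 5.32 with FP54 in NB4 cells (log2 fold change 0.57 ± 0.10, adjusted p = 0.000984). Its MOLM-13 values overlapped, at 4.81, 4.91 and 3.96 against 5.83, 4.35 and 5.68 RPKM. SCARB2 gave a log2 fold change of 0.81 ± 0.14 in NB4 and 0.11 ± 0.22 in MOLM-13 cells. Neither gene passed the test of the difference between lines (adjusted p = 0.24 for NPC1 and 0.0592 for SCARB2), although SCARB2 passed it with eBayes without a trend (0.0402), limma-voom (0.0397), no filter (0.0439) and a pseudocount of 1 (0.0321).

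LAMP1 and LAMP2, the glycoproteins that line the lysosomal membrane, and the tetraspanin CD63 were called in neither line. LAMP1 was 48.5, 33.3 and 43.1 RPKM with DMSO and 33.5, 33.2 and 47.9 with FP54 in MOLM-13 cells, and 43, 42.2 and 41 against 42.8, 42.9 and 42.8 in NB4 cells. Both pairs of groups overlapped, and the fitted log2 fold changes were -0.13 ± 0.19 and 0.03 ± 0.07. The NB4 value was -0.17 with median-ratio scaling and 0.17 with quantile normalization, so its direction depends on the scaling. LAMP2 was 20.9, 20.5 and 16.6 against 24.7, 17.7 and 29.3 RPKM in MOLM-13 cells, with overlap. In NB4 cells LAMP2 was 14.6, 10.9 and 14.2 against 15.9, 18.7 and 20.5 RPKM, without overlap, and its log2 fold change of 0.48 ± 0.13 (adjusted p = 0.0113) was just under the size limit. CD63 gave 0.00 ± 0.14 in MOLM-13 and 0.14 ± 0.11 in NB4 cells.

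Of the 8 proteases, 4 were higher in MOLM-13 cells (CTSA, CTSB, CTSD and CTSH) and 3 in NB4 cells (CTSB, CTSL and TPP1), with medians of 0.73 and 0.47. CTSD, the main aspartic protease of the lysosome, was 14.6, 15.1 and 13.5 RPKM with DMSO and 42.5, 30.4 and 32.7 with FP54 in MOLM-13 cells. Each FP54 library was over all the DMSO libraries, with a ratio of 2.44 (log2 fold change 1.27 ± 0.16, adjusted p = 0.00168). In NB4 cells CTSD was 3.48, 5.78 and 3.83 against 5.48, 5.67 and 5.1 RPKM. There the groups overlapped through DMSO replicate 2 (log2 fold change 0.34 ± 0.17, adjusted p = 0.111), and CTSD passed the test without that library (adjusted p = 0.000657, the lowest of 15 alternatives, which reached 0.51).

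CTSH, a cysteine protease that mainly trims peptides from their amino end, was 2.6, 2.6 and 2.72 RPKM with DMSO and 6.17, 5.25 and 4.74 with FP54 in MOLM-13 cells (log2 fold change 0.99 ± 0.16, adjusted p = 0.00495). In the NB4 table it was 11.9, 14.7 and 12.7 RPKM with DMSO and 10, 10.2 and 10.6 with FP54. The NB4 groups did not overlap but lay in the opposite order, with a log2 fold change of -0.34 ± 0.10 (adjusted p = 0.0134) that was under the size limit. With median-ratio scaling CTSH was called lower in NB4 cells (log2 fold change -0.54, adjusted p = 0.00145), and over all alternatives the NB4 value ran from -0.54 to -0.26.

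CTSB, an abundant cysteine protease, was higher in both lines. It measured 49.1, 82.3 and 55.1 RPKM with DMSO and 173, 127 and 110 with FP54 in MOLM-13 cells (log2 fold change 1.14 ± 0.22, adjusted p = 0.00891). Among NB4 libraries it was 6.77, 7.93 and 7.1 against 11.9, 10.8 and 11.4 RPKM (log2 fold change 0.64 ± 0.10, adjusted p = 0.000347). In neither line did the groups overlap, although the spread among the MOLM-13 libraries was wide.

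CTSA, the carboxypeptidase that protects the sialidase NEU1 from breakdown, was 16.9, 15.9 and 15.8 RPKM with DMSO and 32.3, 21.3 and 29.1 with FP54 in MOLM-13 cells (log2 fold change 0.74 ± 0.17, adjusted p = 0.0155). Its NB4 values were 7.09, 7.46 and 6.55 against 10.2, 9.6 and 9.85 RPKM. They did not overlap, and a log2 fold change of 0.49 ± 0.09 (adjusted p = 0.00142) left CTSA just under the size limit. CTSA overlaps PLTP and NEURL2 on the other strand.

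TPP1, which removes tripeptides from the ends of proteins, rose from 16.5 ± 1.73 to 34.4 ± 1.94 RPKM in NB4 cells (log2 fold change 1.06 ± 0.10, adjusted p = 1.26e-05). In MOLM-13 cells it was 30.7, 28.9 and 21.3 RPKM with DMSO and 53.6, 27.7 and 55.9 with FP54. The low FP54 value was that of replicate 2, the shallowest library, and TPP1 passed the test without it (adjusted p = 0.00805, the lowest of 16 alternatives, which reached 0.334) but not with it (0.0782). CTSL gave 0.80 ± 0.12 in NB4 and 0.26 ± 0.27 in MOLM-13 cells. CTSZ and CTSS, the remaining cysteine proteases, were called in neither line, with log2 fold changes between 0.16 and 0.45.

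**Figure D3:**
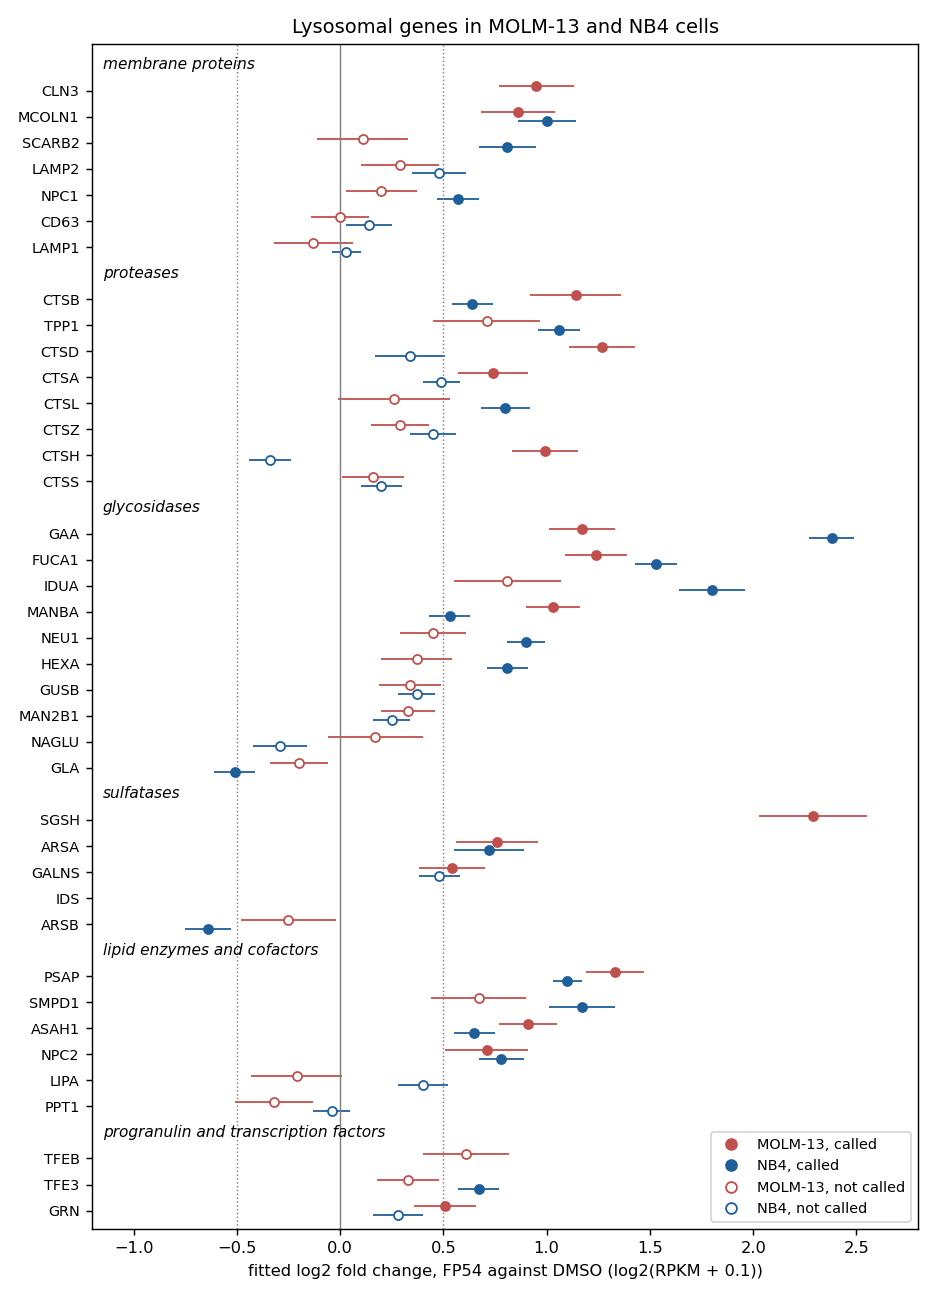
Fitted log2 fold change of FP54 against DMSO on the log2(RPKM + 0.1) scale (x axis) for each of the 39 lysosomal genes (y axis, by role), with MOLM-13 in red and NB4 in blue and bars of 1 SE. Filled points passed both the p limit of 0.01 and the size limit of 0.5 (dotted lines), and genes with a missing point (IDS in both lines, CLN3, SGSH and TFEB in NB4) were under the filter.

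The 3 largest fitted log2 fold changes in NB4 cells belonged to glycosidases (GAA, IDUA and FUCA1), of which 6 of 10 were higher and 1 was lower there, with a median of 0.67. In MOLM-13 cells 3 of 10 were higher, with a median of 0.41. GAA, which breaks down lysosomal glycogen, measured 1.42, 1.31 and 1.17 RPKM with DMSO and 7.21, 6.89 and 7.36 with FP54 in NB4 cells. That was a 5.5-fold ratio (log2 fold change 2.38 ± 0.11, adjusted p = 1.73e-07), the highest of any member in NB4 cells. In MOLM-13 cells GAA was 11.1, 9.37 and 10.1 against 27.7, 19.3 and 22.6 RPKM, a 2.28-fold ratio (log2 fold change 1.17 ± 0.16, adjusted p = 0.00267). Neither pair of groups overlapped. GAA held the 10-letter E-box at 2 places in its promoter, while the promoters of FUCA1 and IDUA held no CACGTG core. A link between the motif and the fold change was not tested.

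FUCA1, which removes fucose from glycans, was 23.1, 25.6 and 19 RPKM with DMSO and 56, 47.9 and 56.2 with FP54 in MOLM-13 cells (log2 fold change 1.24 ± 0.15, adjusted p = 0.00168). NB4 cells gave 7.11, 5.88 and 6.59 against 17.8, 19.3 and 19.9 RPKM (log2 fold change 1.53 ± 0.10, adjusted p = 1.31e-06). Each group of FP54 values was clear of its DMSO values. MANBA, the beta-mannosidase of the same glycan pathway, was 14.2, 15.5 and 14.2 against 32.4, 29.6 and 28.2 RPKM in MOLM-13 cells (log2 fold change 1.03 ± 0.13, adjusted p = 0.00188). In NB4 cells MANBA was 6.52, 5.67 and 5.93 against 8.9, 8.31 and 9.11 RPKM (log2 fold change 0.53 ± 0.10, adjusted p = 0.0011). Both MANBA differences exceeded the spread between libraries.

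IDUA, which cleaves iduronic acid from dermatan and heparan sulfate, was 0.811, 0.694 and 0.562 RPKM with DMSO and 2.93, 2.39 and 2.58 with FP54 in NB4 cells (ratio 3.82, log2 fold change 1.80 ± 0.16, adjusted p = 8.61e-06). In MOLM-13 cells it was 0.879, 0.514 and 0.923 against 1.66, 1.18 and 1.37 RPKM. Those groups did not overlap, but the gene did not pass the test (log2 fold change 0.81 ± 0.26, adjusted p = 0.0539). It passed under 5 of 14 alternatives (eBayes without a trend, limma-voom, median-ratio scaling, quantile normalization and the replicate block, adjusted p from 0.036 to 0.0494), and over all of them the adjusted p reached 0.194. With DMSO, IDUA averaged 0.689 RPKM in NB4 and 0.772 RPKM in MOLM-13 cells. It thus passed the filter in both lines only through its FP54 values. IDUA overlaps SLC26A1 on the other strand.

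NEU1, the sialidase, and HEXA, the alpha chain of the hexosaminidase that degrades the ganglioside GM2, were higher in NB4 cells with log2 fold changes of 0.90 ± 0.09 and 0.81 ± 0.10. In MOLM-13 cells they gave 0.45 ± 0.16 and 0.37 ± 0.17 and were not called. GUSB, MAN2B1 and NAGLU were called in neither line. The first of them, a beta-glucuronidase often taken as a reference gene, still went from 34.1 ± 3.63 to 44 ± 2.27 RPKM in NB4 cells without overlap (log2 fold change 0.37 ± 0.09).

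GLA, the alpha-galactosidase, was lower in NB4 cells. It was 7.37, 8.36 and 8.21 RPKM with DMSO and 5.33, 5.58 and 5.85 with FP54 there (log2 fold change -0.51 ± 0.10, adjusted p = 0.00154), without overlap. In MOLM-13 cells it was 10.3, 9.35 and 10.2 against 8.51, 8.03 and 9.47 RPKM, with overlap (log2 fold change -0.20 ± 0.14, adjusted p = 0.345). Its NB4 value lay at the size limit, and the call was lost without DMSO replicate 2, DMSO replicate 3 or FP54 replicate 1 (log2 fold changes of -0.47, -0.48 and -0.47), while over all alternatives it ran from -0.70 to -0.45. GLA overlaps RPL36A, a ribosomal protein gene, on the other strand.

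Of the 5 sulfatases, MOLM-13 cells allowed a test of 4, with 3 higher, and NB4 cells of 3, with 1 higher and 1 lower. SGSH, which removes sulfate from the glucosamine of heparan sulfate, had the largest fold change of any member in MOLM-13 cells. There it was 0.626, 0.801 and 0.502 RPKM with DMSO and 5.01, 2.83 and 2.97 with FP54, a 5.61-fold ratio (log2 fold change 2.29 ± 0.26, adjusted p = 0.00156). All FP54 libraries lay well above the DMSO libraries. SGSH averaged 0.643 RPKM with DMSO there, so it entered the test only through its FP54 values. In NB4 cells SGSH was hardly detected, with 4 reads in each DMSO library and 11, 7 and 14 in the FP54 libraries, at most 0.161 RPKM. SGSH overlaps CARD14 and SLC26A11 on the other strand.

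ARSA, the sulfatide sulfatase, was higher in both lines. It was 2.69, 2.04 and 2.19 against 4.6, 3.13 and 4.27 RPKM in MOLM-13 cells (log2 fold change 0.76 ± 0.20, adjusted p = 0.0269). The NB4 values were 0.796, 1.12 and 0.776 with DMSO and 1.64, 1.32 and 1.65 with FP54 (log2 fold change 0.72 ± 0.17, adjusted p = 0.00467). Neither comparison had overlapping values, but with quantile normalization the NB4 log2 fold change of ARSA was 0.19 (adjusted p = 0.368). ARSA averaged 0.896 RPKM with DMSO in NB4 cells and passed the filter there only through its FP54 values. GALNS, the sulfatase of keratan sulfate, was 5.89, 5.71 and 5.95 against 10.4, 7.29 and 8.18 RPKM in MOLM-13 cells (log2 fold change 0.54 ± 0.16, adjusted p = 0.0456). In NB4 cells it was 3.15, 3.19 and 3.04 against 4.4, 4.31 and 4.45 RPKM, without overlap and just under the size limit (log2 fold change 0.48 ± 0.10, adjusted p = 0.00238).

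ARSB, the sulfatase of dermatan and chondroitin sulfate, was the member with the largest decrease. It was 3.83, 3.21 and 3.42 RPKM with DMSO and 2.18, 2.3 and 2.12 with FP54 in NB4 cells (log2 fold change -0.64 ± 0.11, adjusted p = 0.00104), without overlap. The MOLM-13 values, 3.29, 2.45 and 3.13 against 1.8, 2.62 and 3.13 RPKM, overlapped (log2 fold change -0.25 ± 0.23). IDS, the iduronate sulfatase, was under the filter in both lines, at 0.273 to 0.495 RPKM with DMSO and 0.948 to 1.32 with FP54 in MOLM-13 cells and at 0.111 to 0.198 and 0.407 to 0.619 in NB4 cells.

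Among lipid enzymes and cofactors, 3 of 6 were higher in MOLM-13 cells and 4 of 6 in NB4 cells, with medians of 0.69 and 0.71. PSAP, the precursor of the 4 saposins that present sphingolipids to their hydrolases, was the most abundant member. It was 234, 241 and 223 RPKM with DMSO and 678, 523 and 559 with FP54 in MOLM-13 cells (ratio 2.52, log2 fold change 1.33 ± 0.14, adjusted p = 0.00134). NB4 cells gave 122, 121 and 119 against 263, 256 and 256 RPKM (ratio 2.14, log2 fold change 1.10 ± 0.07, adjusted p = 1.52e-06). The FP54 libraries of both lines were clear of the DMSO libraries.

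**Figure D4:**
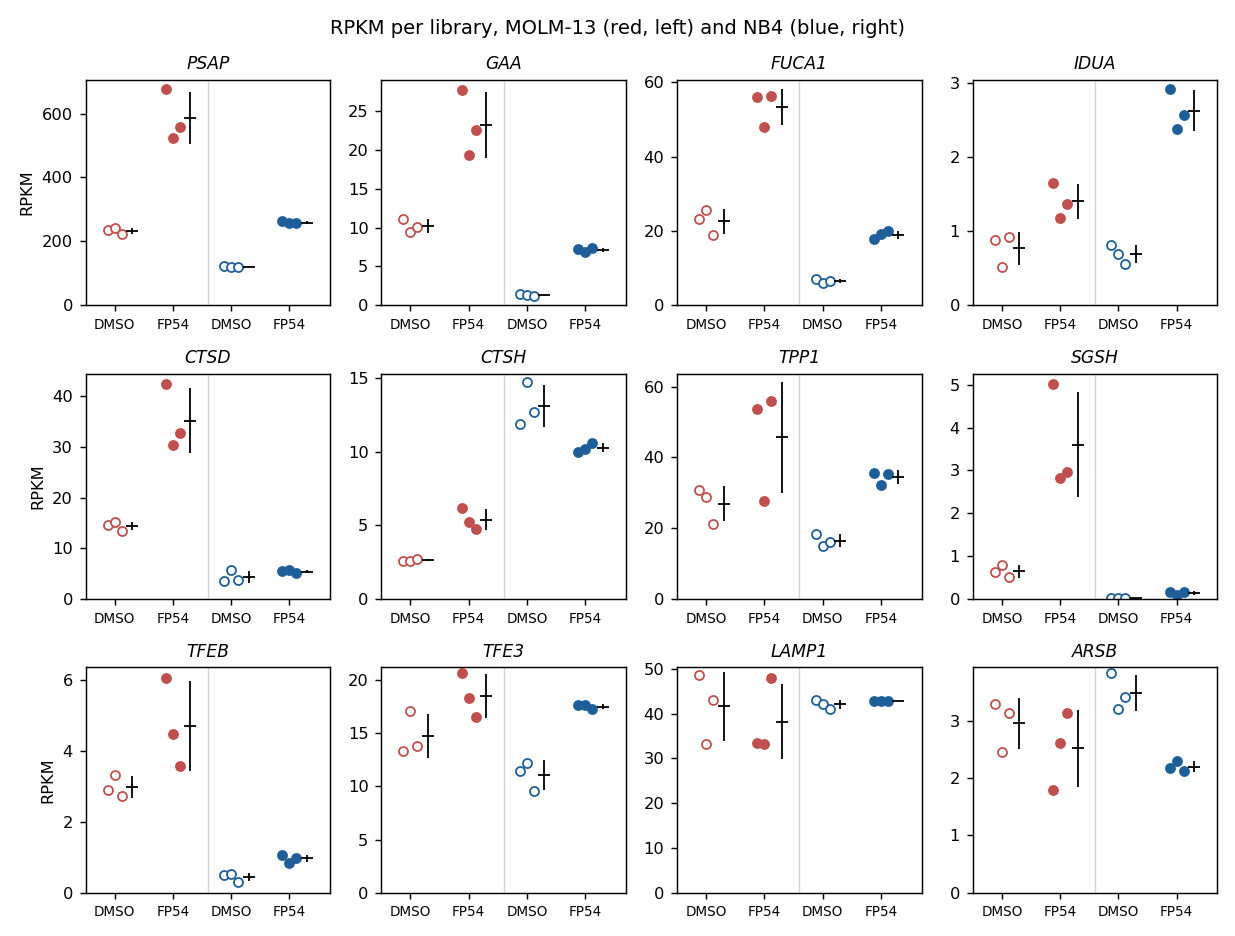
RPKM per library (y axis, from 0, a scale for each gene) of 12 lysosomal genes, with MOLM-13 in red on the left and NB4 in blue on the right of each panel, open circles for DMSO and filled circles for FP54, and crosses with bars for the mean and SD of 3 libraries. PSAP, GAA, FUCA1 and IDUA show no overlap between treatments in either line, CTSH lies in opposite orders in the lines, and LAMP1 overlaps in both.

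SMPD1, the acid sphingomyelinase, was 1.22, 1.11 and 0.963 RPKM with DMSO and 3.27, 2.38 and 2.2 with FP54 in NB4 cells (log2 fold change 1.17 ± 0.16, adjusted p = 0.000226). In MOLM-13 cells it was 1.74, 1.48 and 1.2 against 3.1, 1.88 and 2.31 RPKM, without overlap but short of the test (log2 fold change 0.67 ± 0.23, adjusted p = 0.0671). Acid ceramidase, ASAH1, acts on the ceramide that SMPD1 releases and was higher in both lines, with log2 fold changes of 0.91 ± 0.14 in MOLM-13 and 0.65 ± 0.10 in NB4 cells.

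NPC2, the soluble protein that hands cholesterol to NPC1, was 25.8, 22.5 and 18.8 against 42.4, 27 and 41.7 RPKM in MOLM-13 cells (log2 fold change 0.71 ± 0.20, adjusted p = 0.0329). Its NB4 values were 5.32, 5.36 and 4.66 against 7.89, 9.38 and 9.33 RPKM (log2 fold change 0.78 ± 0.11, adjusted p = 0.000203). Neither pair of groups overlapped, although FP54 replicate 2 of MOLM-13 cells (27) lay close to the highest DMSO value (25.8). LIPA, the acid lipase, and PPT1, which removes palmitate from proteins, were called in neither line. Their log2 fold changes were -0.21 ± 0.22 and -0.32 ± 0.19 in MOLM-13 cells and 0.40 ± 0.12 and -0.04 ± 0.09 in NB4 cells.

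GRN, a secreted growth factor precursor that is also cut into granulins in the lysosome, was 124, 127 and 120 RPKM with DMSO and 198, 147 and 187 with FP54 in MOLM-13 cells (log2 fold change 0.51 ± 0.15, adjusted p = 0.0368). Its NB4 values of 44.5, 56 and 38.9 against 57.4, 54.3 and 56 RPKM overlapped (log2 fold change 0.28 ± 0.12, adjusted p = 0.0713). The MOLM-13 call lay at the size limit.

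TFEB measured 2.9, 3.34 and 2.74 RPKM with DMSO and 6.08, 4.49 and 3.57 with FP54 in MOLM-13 cells. The groups did not overlap, but TFEB did not pass the test (log2 fold change 0.61 ± 0.21, adjusted p = 0.0632). In NB4 cells it was 0.497, 0.538 and 0.313 against 1.07, 0.856 and 0.99 RPKM, under the filter and without overlap. TFE3 was 11.4, 12.2 and 9.51 RPKM with DMSO and 17.6, 17.6 and 17.2 with FP54 in NB4 cells (log2 fold change 0.67 ± 0.10, adjusted p = 0.000395). In MOLM-13 cells TFE3 overlapped, at 13.3, 17.1 and 13.8 against 20.6, 18.3 and 16.5 RPKM (log2 fold change 0.33 ± 0.15, adjusted p = 0.156). RNA levels say nothing of where either factor lay in the cell.

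For the members under the filter, a fit of all 20411 genes without a filter gave log2 fold changes of 1.46 for IDS in MOLM-13 cells (adjusted p = 0.0745), and of 0.74 for CLN3, 1.26 for IDS, 0.87 for SGSH and 0.98 for TFEB in NB4 cells, with adjusted p between 0.00903 and 0.0223. In that fit 3.96% of all genes were called higher in MOLM-13 and 20.9% in NB4 cells. The pseudocount of 0.1 RPKM shrinks the fold change of such low genes. In NB4 cells SGSH averaged 0.028 RPKM with DMSO and 0.136 RPKM with FP54. The olfactory receptor level was 0.0017 to 0.00374 RPKM and 0.05 to 0.0551 RPKM in the same libraries. It was not subtracted in this fit, and its part in these low values was not tested. Besides the overlaps named above, SCARB2, NPC1, CTSZ, GALNS, NPC2 and LIPA overlap FAM47E, RMC1, NELFCD, TRAPPC2L, ISCA2 and IFIT genes on the other strand.

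Of the 16 calls in MOLM-13 cells, 11 held under every alternative in which the gene was tested. ARSA, GALNS, NPC2 and GRN were each lost without DMSO replicate 2, DMSO replicate 3, FP54 replicate 1 or FP54 replicate 3 (adjusted p from 0.0496 to 0.177), and GALNS and GRN also without DMSO replicate 1. The same genes were lost with no filter on low values (adjusted p from 0.129 to 0.195), the only alternative that lost CTSB (0.123). GALNS was also lost with a pseudocount of 1 and the replicate block. GRN was also lost with the replicate block, eBayes without a trend, median-ratio scaling and quantile normalization. Besides IDUA, TFEB was called without FP54 replicate 3 (adjusted p = 0.0298) and by limma-voom on recovered reads (0.0423), TPP1 without FP54 replicate 2 as given above, and NEU1 and SMPD1 without FP54 replicate 2 (0.038 and 0.0351). Of the 20 calls in NB4 cells, 11 held, and SCARB2, NPC1, CTSB, GLA, MANBA, ARSA, ARSB, ASAH1 and TFE3 were lost under 1 or more alternatives. With median-ratio scaling, which moved the NB4 median of all genes from 0.07 to -0.13, 12 members were called higher and 3 lower. Leaving out DMSO replicate 2 of NB4 cells put CTSA (0.53) and CTSZ (0.51) over the size limit and MANBA (0.49) under it, CTSA also passed without FP54 replicate 2 (0.51), and LAMP2 passed without DMSO replicate 1 (0.55), DMSO replicate 3 (0.53) or FP54 replicate 1 (0.58).

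In both lines 9 members were higher: MCOLN1, CTSB, GAA, MANBA, FUCA1, ARSA, ASAH1, PSAP and NPC2. They are 64.3% of the 14 members called higher in MOLM-13 and 50% of the 18 called higher in NB4 cells among the 35 tested in both. Over all 8849 genes tested in both lines, 362 were higher in both, 51.6% of the MOLM-13 and 24.1% of the NB4 calls. Among the 9 members, ARSA was tested in NB4 cells only through its FP54 values. No member was called higher in a line and lower in the other, except that CTSH was with median-ratio scaling (0.97 in MOLM-13 and -0.54 in NB4 cells).

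Whether FP54 acted to a different extent on a gene in NB4 and in MOLM-13 cells was tested as an interaction over the 12 libraries. It was called at an adjusted p below 0.05 for 5 of the 35 members tested, and for 14.2% of 8849 genes. The log2 fold change was larger in NB4 cells by 1.21 ± 0.20 (SE) for GAA (adjusted p = 0.000805) and by 0.99 ± 0.29 for IDUA (adjusted p = 0.035). IDUA passed the filter in both lines only through its FP54 values. The difference, NB4 minus MOLM-13, was -1.34 ± 0.18 for CTSH (adjusted p = 0.000153), -0.93 ± 0.24 for CTSD (adjusted p = 0.0188) and -0.50 ± 0.15 for MANBA (adjusted p = 0.0399). CTSH and GAA kept the call under every alternative in which they were tested, with adjusted p up to 0.0115 and 0.0425. Without replicate 1 or without replicate 3 of both lines, CTSD and MANBA lost it (0.0896 and 0.115 for CTSD, 0.379 and 0.245 for MANBA), and IDUA lost it without replicate 3 (0.318). For the other 30 members tested, a difference between lines was not shown, including several that passed the test within a single line, such as TPP1 (0.35 ± 0.31) and SMPD1 (0.50 ± 0.29). Some alternatives called further interactions: SCARB2 under those given above, GLA with median-ratio scaling (-0.48, adjusted p = 0.0425) and quantile normalization (-0.48, 0.0342), and ARSB, ASAH1 and NAGLU with quantile normalization alone (0.0344, 0.0469 and 0.032).

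**Figure D5:**
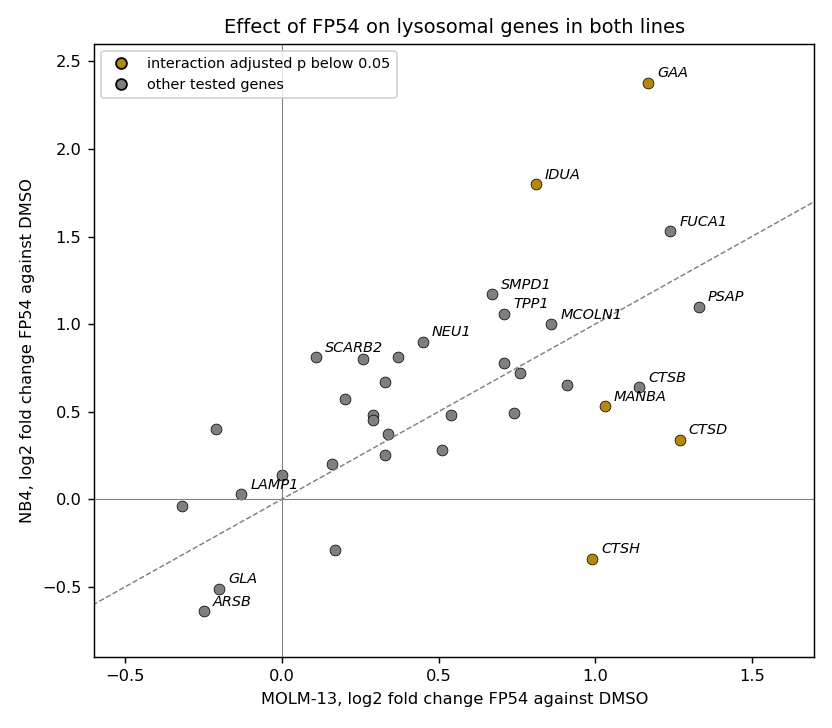
Fitted log2 fold change of FP54 against DMSO in MOLM-13 cells (x axis) and in NB4 cells (y axis) for the 35 lysosomal genes tested in both lines, with a dashed line where the values are equal. Gold points mark the 5 genes with an interaction adjusted p below 0.05, of which GAA and IDUA lie above the line and CTSD, CTSH and MANBA below it.

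Other genes of the organelle were counted by lists drawn from general knowledge. Like the members, these lists were chosen with earlier results of these data known, so their counts are not independent of the data. Of 37 other lysosomal hydrolases, 29 were tested in MOLM-13 cells with 9 higher and none lower, and 28 in NB4 cells with 13 higher and none lower, with medians of 0.40 and 0.48. The background over all genes was 9.3% higher and 9.04% lower in MOLM-13 cells, and 18.6% and 10.7% in NB4 cells. In MOLM-13 cells the called genes ran from CTSF, a cysteine protease (1.8 ± 0.491 to 4.87 ± 1.63 RPKM, log2 fold change 1.37), and SIAE, a sialic acid esterase (0.85), down to MAN2B2 (0.62) and GM2A, the activator protein for GM2 breakdown (0.60). In NB4 cells they ran from the sulfatase ARSG (0.795 ± 0.0534 to 2.58 ± 0.0263 RPKM, 1.59) and the nuclease DNASE2 (1.5) down to the ribonuclease RNASET2 (0.52) and the acid amidase NAAA (0.50). ARSG was tested only through its FP54 values.

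Of 35 other membrane proteins and transporters, 32 were tested in MOLM-13 cells with 8 higher and 2 lower, and 31 in NB4 cells with 13 higher and none lower. The background was again 9.3% higher and 9.04% lower in MOLM-13 cells, and 18.6% and 10.7% in NB4 cells. The nucleoside transporter SLC29A3 and the macrophage glycoprotein CD68 were the highest in MOLM-13 cells, with log2 fold changes of 1.26 and 1.11, and CD68 went from 192 ± 8.22 to 418 ± 70.9 RPKM. LAPTM4B and the chloride transporter CLCN6 were lower there, by -1.07 and -0.51, although the LAPTM4B groups overlapped. SIDT2 (1.39) and OSTM1, the partner of the chloride transporter CLCN7 (1.06), led in NB4 cells, and TMBIM1 (0.54) and CD164 (0.52) were the lowest of those called. SLC29A3 in MOLM-13 and SIDT2 in NB4 cells averaged 0.739 and 0.897 RPKM with DMSO. Both were tested only through their FP54 values.

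The V-ATPase is the pump that acidifies the lysosome. In MOLM-13 cells 3 of 18 tested were higher, ATP6V1B2 (0.73), TCIRG1 (0.65) and ATP6V1H (0.60), and ATP6V1C2 was lower (-0.97). In NB4 cells ATP6V0A1 (0.52) alone of 19 was called, and the list's median was 0.01. The backgrounds were 9.3% higher and 9.04% lower in MOLM-13 cells, and 18.6% and 10.7% in NB4 cells. The share of subunits called higher lay above its background in MOLM-13 and below it in NB4 cells.

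Of the genes for mannose 6-phosphate tagging and delivery, 3 of 25 were higher in MOLM-13 cells: GNPTG, a subunit of the tagging enzyme (0.88), VPS39 (0.59) and the adaptor subunit AP1S2 (0.55). In NB4 cells 2 of 25 were higher, AP1S2 (1.58) and IGF2R, the large mannose 6-phosphate receptor, which went from 15.2 ± 3.03 to 36.2 ± 1.33 RPKM (1.27). None was lower in either line. Over all genes, 9.3% were higher and 9.04% lower in MOLM-13 cells, and 18.6% and 10.7% in NB4 cells.

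Of the genes that place mTORC1 on the lysosome or control TFEB, 1 of 23 was higher and 3 were lower in MOLM-13 cells. RRAGB, a Rag GTPase, was higher (0.78), and LAMTOR2 (-0.66), MLST8 (-0.57) and RPTOR (-0.53) were lower. In NB4 cells FLCN (0.90) and RRAGC (0.51) were higher and LAMTOR2 was lower (-0.72), of 21 tested. The shares over all genes were 9.3% higher and 9.04% lower in MOLM-13 cells and 18.6% and 10.7% in NB4 cells. LAMTOR2, a subunit of the Ragulator scaffold, was lower in both lines, at 15.5 ± 4.24 against 9.53 ± 0.578 RPKM in MOLM-13 and 27.5 ± 2.7 against 16.7 ± 2.31 RPKM in NB4 cells.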

How the data were processed

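Gene expression of both cell lines was re-analyzed from 12 RNA-seq libraries, 3 for each treatment and line. According to the authors, polyadenylated RNA was purified in 2 rounds, and reads were trimmed (cutadapt 4.8), freed of duplicates, aligned to hg38 with STAR 2.7.11b and assigned to protein-coding genes with featureCounts 2.0.3. The authors converted the counts to RPKM, and the deposited values are RPKM. The gene length and library total they used, and their use of strand, are not given in the sources used here. Only its name ties the NB4 table to that line. Samples of m6A-seq and polysome-seq were not used here.

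Multiplying RPKM by exon lengths of a GENCODE annotation gave whole reads (within 0.05) for 98.52 to 99.23% of values under 50 reads, which gives the depths stated. Genes whose RPKM averaged 1 or more were kept in each line, and limma 3.58.1 (R 4.3.3, eBayes with an intensity trend) was run on log2(RPKM + 0.1). That average was over both treatments, so a gene low with DMSO could be kept through its FP54 values. Calls needed an unadjusted p under 0.01 and a log2 fold change of 0.5 or more in size, the study's cutoff, and adjusted p-values are Benjamini-Hochberg over all genes tested. Fold changes on this scale understate the change of low genes. The interaction was fitted over 12 libraries. Labels do not say that replicates were separate cultures, so p-values measure the spread between these libraries, which may be technical.

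The members and gene lists were chosen with earlier results of these data known. Values in every library are given for TFEB, TFE3, LAMP1, LAMP2 and CTSD, for the 5 called members with the highest and the 5 with the lowest log2 fold change in each line and for the 5 largest called interactions. From each further list the 2 highest and 2 lowest called genes are named. Values of MCOLN1 and TPP1 were added after they were seen. Results were recomputed with a pseudocount of 1 or 0.01, without a filter or with a filter at 5 RPKM, with median-ratio scaling, quantile normalization or a replicate block, with eBayes lacking a trend, with another cutoff, with limma-voom on recovered reads and without each library in turn. Subtraction of the olfactory receptor level was chosen after seeing the data. The fit was tested on simulated data. Python 3.11.15, pandas 2.3.3, numpy 2.4.6 and, for figures, matplotlib 3.10.9 were used.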

Additional observations from a re-analysis of the deposited data

Results flagged for a closer look

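For 5 of 35 members the effect of FP54 differed between the lines by the interaction test (limma, Benjamini-Hochberg adjusted over 8849 genes), which called 14.2% of all genes, so the count of members is near that of genes at large. CTSH lay above its DMSO values in all 3 FP54 libraries of MOLM-13 cells and under its DMSO values in all 3 of NB4 cells, a difference of -1.34 (adjusted p = 0.000153, and 5.24e-05 to 0.0115 over the alternatives). GAA was higher in both lines, with a log2 fold change larger by 1.21 in NB4 cells (adjusted p = 0.000805, and 0.000582 to 0.0425 over the alternatives). The differences of IDUA (0.99, adjusted p = 0.035), CTSD (-0.93, adjusted p = 0.0188) and MANBA (-0.50, adjusted p = 0.0399) were lost under 1 or more alternatives.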

How the results depend on the processing

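In MOLM-13 cells the count of called members stayed within 1.5 times its value and the median within the spread between libraries under each alternative run, with 11 to 18 members called and, leaving out a library, 12 to 19 called and medians of 0.42 to 0.63. Limma-voom on recovered reads called 1015 genes higher and 948 lower in MOLM-13 cells and 1880 and 1051 in NB4 cells. The NB4 median was 0.44 with a filter at 5 RPKM, 0.34 with median-ratio scaling, 0.64 without a filter, 0.45 with a pseudocount of 1, 0.44 with quantile normalization and 0.51 to 0.59 leaving out a library. NB4 calls fell to 9 with the filter at 5 RPKM, where 20 members were tested, and were 20 to 21 leaving out a library. Median-ratio scaling gave 1184 higher and 2009 lower genes in NB4 cells, against 1834 and 1050 as deposited, and quantile normalization gave 1280 and 1363, with 14 members higher and 2 lower. Interaction calls numbered 1 with the filter at 5 RPKM (19 tested), 8 with quantile normalization and 2 to 5 leaving out the same number in both lines. The cause of the changes with scaling was not tested.

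IDUA also lost its interaction with median-ratio scaling (adjusted p = 0.0542) and quantile normalization (0.727). Over all alternatives the adjusted p ran from 0.0116 to 0.727 for IDUA, from 0.00733 to 0.115 for CTSD and from 0.00601 to 0.379 for MANBA. No called value changed direction under any alternative.

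Deviations of same-numbered DMSO and FP54 libraries correlated at -0.262, -0.134 and -0.0577 in MOLM-13 and -0.143, 0.0748 and 0.123 in NB4 cells. Those of DMSO replicates 1, 2 and 3 correlated at 0.593, 0.494 and 0.475 with FP54 replicates 3, 1 and 2 in MOLM-13 cells. The same matches gave 0.22, 0.177 and -0.0279 in NB4 cells. A pairing under other numbers was not modeled, and the block and the interaction fits that left out a replicate used the numbers as given. With the replicate number as a block, 15 members were called in MOLM-13 and 20 in NB4 cells, and 4 interactions, MANBA being lost (adjusted p = 0.0923).

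MOLM-13 FP54 replicate 2 was the shallowest library, and without it 19 members were called. Low members such as IDS and SGSH rest on few reads in NB4 cells.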
